A study of Mus musculus with 6 samples.

Results

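Complex I, NADH:ubiquinone oxidoreductase, is the entry point of electrons into the mitochondrial respiratory chain. Its nuclear-encoded subunits carry symbols that begin with *Nduf*, and so do a group of assembly factors that help to build the complex and are not part of the finished enzyme. The members described here are the protein-coding genes whose symbol begins with *Nduf*. Release M39 of the Gencode annotation holds 48 of them, namely 11 *Ndufs* and *Ndufv* genes, 29 accessory genes (*Ndufa*, *Ndufb*, *Ndufc* and *Ndufab1*) and 8 *Ndufaf* genes. Of the 48 members, 45 are among the 16381 genes listed with values, and all 45 passed the filter on low values that left 14419 genes for testing. These are all 11 *Ndufs* and *Ndufv* genes, 26 accessory genes and all 8 assembly factors. *Ndufa4l2* and *Ndufb11b* are not listed with a value, and *Ndufb1* was not analysed here because its identifier follows the last one listed.

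The cells were activated group 2 innate lymphoid cells (aILC2s), lymphocytes of barrier tissue that release type 2 cytokines, isolated from the lungs of wild-type BALB/c mice given 0.5 µg IL-33 per day for 3 days. The methods describe the mice as female and aged 6 to 8 weeks. aILC2s were cultured for 1 day with melatonin at 250 µM or with DMSO, its solvent (vehicle), and RNA was sequenced from 3 samples per group. All samples share the IL-33 challenge and the culture. The labels do not say whether the samples of a group came from separate mice or cultures. The p-values therefore weigh the difference between groups against the spread between these samples, which may in part be technical.

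Values are the authors' normalized counts, that is, read counts per gene divided by a size factor of the sample. Estimated totals were between 17056239 and 20511667 counts per sample. Library numbers in the labels run from 20 to 22 for melatonin and from 32 to 34 for vehicle, so that the treatment and a batch following those numbers cannot be told apart. Normalized counts of *Xist* were 579 in melatonin replicate 2, 1091 in melatonin replicate 3, 0 in melatonin replicate 1 and between 5.81 and 13.6 in vehicle. The Y-linked transcripts *Ddx3y*, *Eif2s3y*, *Kdm5d* and *Uty* were at 0 in melatonin replicates 2 and 3 and present in the other 4 samples. Their presence in those 4 samples is at odds with the female mice of the methods. Both samples without them are melatonin samples, so donor sex and treatment are partly confounded. Within melatonin, replicate 1 differs in this from replicates 2 and 3, so the group does not repeat a single RNA pool. All 12 genes of an ILC2 marker list were listed with values, and they did not all move in one direction. With melatonin 8 genes were lower, 2 higher and 2 not called, with a median log2 fold change of −0.81. The sum of the list was between 205044 and 217245 normalized counts in vehicle and between 140045 and 155336 in melatonin. Such a sum is weighted to the genes with the largest values and does not measure the amount of ILC2s. Several marker lists of other cell types also moved. The 9 T cell markers summed to between 6139 and 6663 normalized counts in vehicle and between 2177 and 3213 in melatonin, with 6 of 6 tested genes lower and *Cd4*, *Cd8a* and *Cd5* without a value. NK or ILC1 markers summed to between 5944 and 7224 in vehicle and between 75.6 and 210 in melatonin, with 3 of 3 tested genes lower. Myeloid markers summed to between 1164 and 1374 against between 256 and 699, with 5 of 6 tested genes lower and *Ly6g* without a value. Of the 5 epithelial markers 4 were lower and *Epcam* was higher, and their sum ran from 919 to 2260 in vehicle and from 1025 to 1236 in melatonin. Endothelial markers summed to between 1001 and 1066 against between 310 and 416 with *Cdh5* and *Kdr* without a value, and B cell markers to between 289 and 322 against between 131 and 162 with *Ms4a1* and *Pax5* without a value. Erythroid markers summed to between 24.04 and 51.3 over all samples, mast cell or basophil markers, with *Fcer1a* and *Ms4a2* without a value, to between 1.87 and 36.2, and no fibroblast marker was listed. The part of ILC2 markers and of other cell types in the results for *Nduf* genes was not tested.

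Complex I has the shape of an L. The peripheral arm stands in the matrix and holds the catalytic core, in which NADH is oxidised by flavin mononucleotide and electrons pass along iron-sulphur clusters to ubiquinone. The membrane arm pumps protons, and its core subunits are encoded by mitochondrial DNA. Accessory subunits surround both arms and hold them in place, and assembly factors join sub-modules, insert cofactors or modify core subunits on the way. ILC2s are known to draw on mitochondrial respiration when activated.

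Some members have near-identical copies elsewhere in the genome, and these matter here because the algorithm used by the authors divides a read among the genes that it fits. The coding sequences below, from the GRCm39 annotation, show how little separates 2 members from their copies. *Ndufa12* on chromosome 10 and its processed pseudogene *Ndufa12-ps* on chromosome 5 differed at 2 positions of the 402 aligned coding bases, A135G and T414C, counted from 1 at the A of the start codon of the member. *Ndufab1* and its pseudogene *Gm4459*, both on chromosome 7, differed at 1 position of 468, G137A. The capital marks the base that differs, in coding bases 110 to 159 of *Ndufa12* and 112 to 161 of *Ndufab1*.
Ndufa12: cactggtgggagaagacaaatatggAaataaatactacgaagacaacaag
Ndufa12-ps: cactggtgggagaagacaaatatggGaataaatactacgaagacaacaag
Ndufab1: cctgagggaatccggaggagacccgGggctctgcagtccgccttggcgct
Gm4459: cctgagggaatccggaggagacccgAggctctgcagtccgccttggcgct

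With melatonin, 26 of the 45 members were lower, 1 was higher and 18 did not pass the test (limma, adjusted p under 0.05). That is 57.8% lower, where 24.7% of all genes tested were called lower and 24.5% higher. The 1 higher gene was the assembly factor *Ndufaf7*. The median log2 fold change of the members was −0.30, beside −0.00 over all genes tested, and 39 of the 45 values were negative. When a curve of log2 value against transcript length was removed from each sample, 15 members were lower and 8 higher. Their median was then −0.06, and 24.0% of all genes were lower and 23.7% higher. For 28 of the 45 members all 3 melatonin values lay below all 3 vehicle values, beside 30.3% of all genes tested. For 1 of the 45 all 3 lay above, beside 30.0% of all genes, and in the other 16 the groups overlapped. A single gene in 3 samples against 3 cannot reach a two-sided p below 0.1 in the exact permutation test. In bulk RNA, fewer cells of a type and less RNA per cell cannot be told apart.

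**Figure D1:**
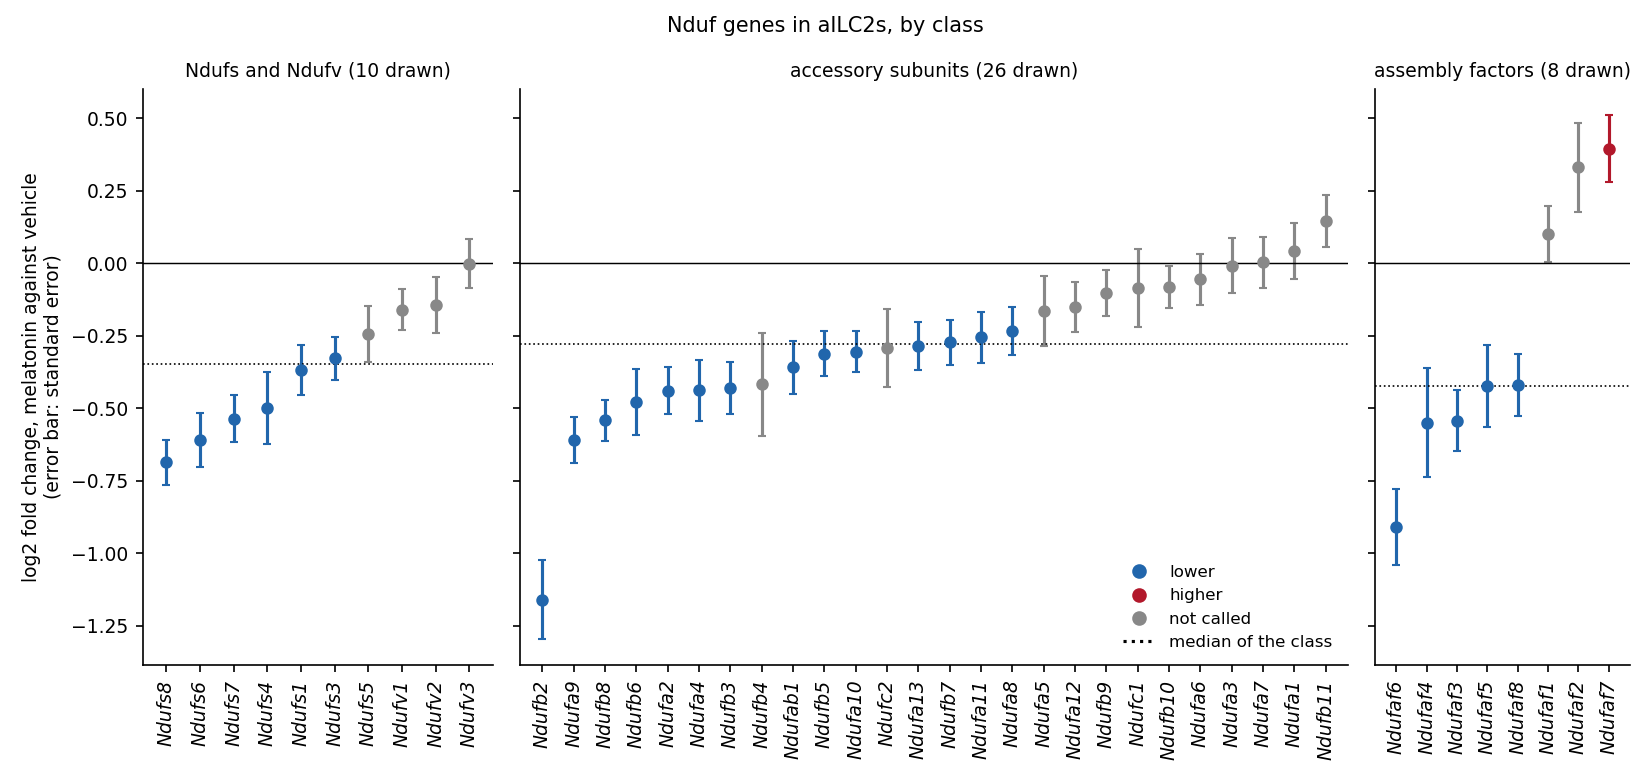
Log2 fold change of 44 *Nduf* genes, melatonin against vehicle, on the log2 scale of the normalized count plus 1, with the standard error from limma as the error bar, in the classes *Ndufs* and *Ndufv*, accessory subunits and assembly factors. Colour shows the call at an adjusted p of 0.05 and the dotted line the median of the class. *Ndufb2* at −1.16 and *Ndufaf6* at −0.91 lie lowest, and the only called rise is *Ndufaf7* at 0.40.

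Summed over the 45 members, melatonin samples 1, 2 and 3 held 78.8%, 81.0% and 86.3% of the vehicle mean, and the vehicle samples held 104%, 101% and 95.4%. The groups did not overlap. The 11 *Ndufs* and *Ndufv* genes summed to 77.1%, 79.7% and 81.8% of their vehicle mean, and the 26 accessory genes to 79.5%, 81.1% and 88.0%. The 8 assembly factors summed to 79.8%, 88.7% and 91.4%. Melatonin replicate 1 was the lowest of the 3 melatonin samples in all of these sums and melatonin replicate 3 the highest. Gene by gene, melatonin replicate 1 was lowest of its group in 27 of the 45 members, and in 38.9% of all genes tested. Among genes called lower the shares were 57.7% for members and 56.9% for all genes.

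**Figure D2:**
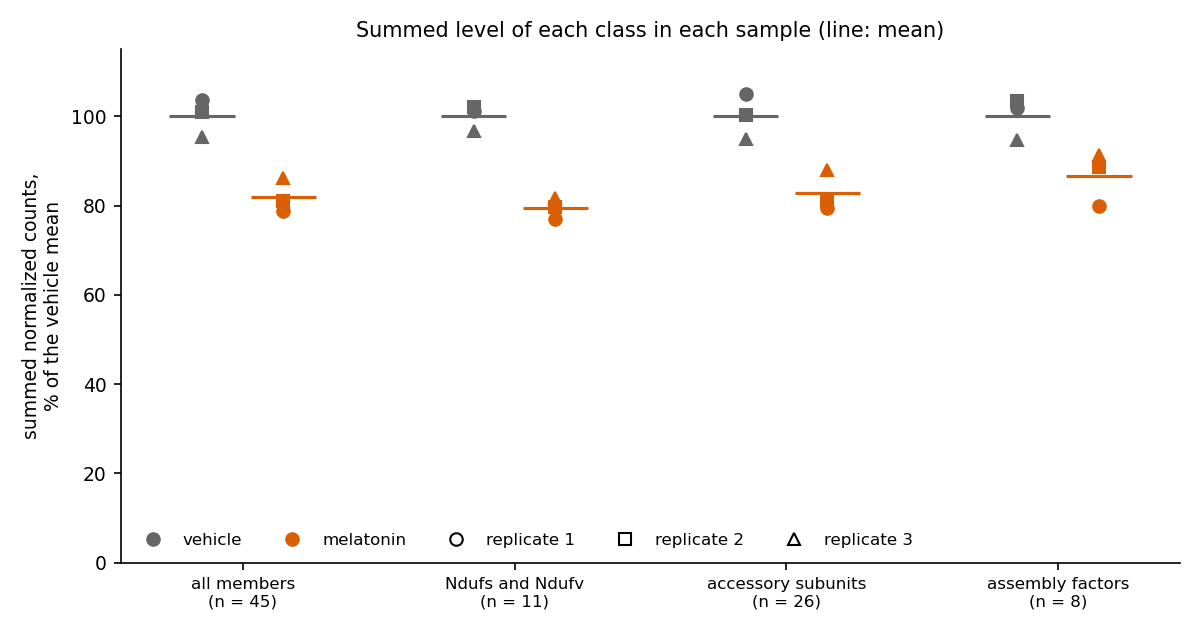
Summed normalized counts of all members, of the *Ndufs* and *Ndufv* genes, of the accessory subunits and of the assembly factors in each sample, as a percentage of the vehicle mean, with the group mean as a line. All melatonin points lie below all vehicle points in each set, and the *Ndufs* and *Ndufv* genes lie between 77.1% and 81.8% in melatonin.

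The catalytic core of the peripheral arm includes *Ndufs1*, *Ndufs3*, *Ndufs7*, *Ndufs8*, *Ndufv1* and *Ndufv2*. The 11 *Ndufs* and *Ndufv* genes, which hold the core and 4 accessory subunits, had 7 genes lower with melatonin and none higher in limma or at an unadjusted p under 0.05, with a median log2 fold change of −0.35. Of the core genes named, *Ndufs8* and *Ndufs7* had the largest falls. *Ndufs8* (chromosome 19, 3958862 to 3962948), which carries iron-sulphur clusters near the end of the electron path, was at 2841, 2869 and 2758 normalized counts in vehicle and at 1792, 1634 and 1841 in melatonin. The groups were far apart beside their spread, at 2823 ± 57.6 and 1756 ± 108 (SD, n = 3), and *Ndufs8* fell by 0.69 on the log2 scale (limma standard error 0.08, adjusted p = 0.00025). *Ndufs7* (chromosome 10, 80084941 to 80095049), the subunit that holds the last cluster before ubiquinone, was at 2687, 2657 and 2774 in vehicle and at 2014, 1725 and 1873 in melatonin. Again every melatonin value was below every vehicle value, and the log2 fold change was −0.54 (limma standard error 0.08, adjusted p = 0.00096). This order changed with a correction for transcript length. When a curve of log2 value against transcript length was removed from each sample, *Ndufs7* was not called at −0.18 (limma adjusted p = 0.17), *Ndufs8* was lower at −0.32, and *Ndufs1* had the largest fall of the core genes named, at −0.49. Of the 11 *Ndufs* and *Ndufv* genes 5 were then lower and none higher, with a median of −0.18.

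*Ndufs1* and *Ndufs3* fell by less. *Ndufs1*, the largest subunit of the complex, was at 3143, 3313 and 3093 normalized counts in vehicle and at 2445, 2701 and 2265 in melatonin. *Ndufs3*, part of the ubiquinone module and in place early in assembly, was at 2197, 2283 and 2257 against 1696, 1849 and 1825. The groups were apart in both, and the log2 fold changes were −0.37 and −0.33 with limma adjusted p-values of 0.0072 and 0.0066. With the correction for transcript length *Ndufs3* was not called, at −0.17. The 2 subunits that take electrons from NADH did not pass the test. *Ndufv1*, which binds NADH and flavin mononucleotide, was at 3963, 4191 and 4135 in vehicle and at 3493, 3784 and 3729 in melatonin, a log2 fold change of −0.16 (95% interval −0.32 to 0.00, limma adjusted p = 0.094). Its groups were apart by a small margin. *Ndufv2*, its partner, was at 3412, 3474 and 2849 against 2713, 2994 and 3082, where vehicle replicate 3 lay below 2 melatonin samples, and its log2 fold change was −0.14 (95% interval −0.37 to 0.08).

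The other 4 genes with *Ndufs* or *Ndufv* symbols encode accessory subunits. *Ndufs6* (chromosome 13, 73464968 to 73476661), a zinc-binding subunit added late to the NADH-oxidising module, was at 1811, 1595 and 1680 normalized counts in vehicle and at 1095, 1031 and 1210 in melatonin. *Ndufs4* (chromosome 13, 114421982 to 114524794), which steadies that module and whose loss causes a Leigh-like disease, was at 1720, 1713 and 1553 against 972, 1235 and 1353. Both were lower in every melatonin sample, with log2 fold changes of −0.61 (limma standard error 0.09, adjusted p = 0.00093) and −0.50 (limma standard error 0.12, adjusted p = 0.01). *Ndufs5*, on the outer face of the membrane arm, was at 2407, 2141 and 2064 against 1801, 1737 and 2048, a log2 fold change of −0.24 that missed the threshold at an adjusted p of 0.06 in limma. Melatonin replicate 3 lay next to the vehicle samples, and without it *Ndufs5* was called lower. *Ndufv3*, at the tip of the peripheral arm, was at 1833, 1811 and 1670 against 1648, 1758 and 1911, with a log2 fold change of −0.00 (95% interval −0.20 to 0.19).

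Among the 26 accessory genes 14 were lower, none was higher and 12 were not called in limma, with a median log2 fold change of −0.28. No accessory gene was higher at an unadjusted p under 0.05 either, in limma or with voom, without a correction for length. In 14 the groups were apart and in 12 they overlapped. With the correction for transcript length 6 accessory genes were lower and 6 higher (*Ndufa1*, *Ndufa3*, *Ndufa6*, *Ndufa7*, *Ndufb10* and *Ndufb11*), and the median was 0.03. The largest fall of any member was that of *Ndufb2* (chromosome 6, 39569490 to 39595671), a small subunit of the distal membrane arm. It was at 1416, 1270 and 1258 normalized counts in vehicle and at 485, 593 and 705 in melatonin. Melatonin samples thus held 45.2% of the vehicle mean and lay far below every vehicle sample, a fall of 1.16 on the log2 scale (limma standard error 0.14, adjusted p = 0.00028). With each sample left out in turn its log2 fold change was between −1.29 and −1.02, and it was called in all 6 fits.

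The distal membrane arm is covered by the 10 *Ndufb* genes, of which 6 were lower with a median of −0.36. With the correction for transcript length 2 were lower and 2 higher, with a median of −0.09. *Ndufb8* (chromosome 19, 44537011 to 44543939) was at 5512, 5573 and 5234 in vehicle and at 3857, 3600 and 3760 in melatonin, a log2 fold change of −0.54 (limma standard error 0.07, adjusted p = 0.00047). *Ndufb6* was at 3189, 3040 and 2546 against 1856, 2121 and 2321, and *Ndufb3* at 1783, 1714 and 1515 against 1175, 1286 and 1256. None of these groups overlapped, and the log2 fold changes of *Ndufb6* and *Ndufb3* were −0.48 and −0.43. With the correction for transcript length *Ndufb3* stayed lower, while *Ndufb8* and *Ndufb6* were not called, at −0.14 and −0.07 (limma adjusted p = 0.28 and 0.59). *Ndufb5* and *Ndufb7* were lower by less, at −0.31 and −0.27, and each lost its call without vehicle replicate 1 and with the correction for transcript length. *Ndufb4*, *Ndufb9*, *Ndufb10* and *Ndufb11* were not called, at −0.42, −0.10, −0.08 and 0.15. *Ndufb4* had a log2 fold change close to that of *Ndufb3* with a larger standard error of 0.18, and its melatonin samples were spread from 258 to 423 beside 400 to 476 in vehicle. With each sample left out in turn it ranged from −0.60 to −0.24, and it was called lower without melatonin replicate 3. *Ndufb9*, a subunit of the LYR protein family, had groups that overlapped, at 3412, 3300 and 3146 against 2950, 2945 and 3304.

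Of the 9 accessory subunits of the proximal membrane arm, 4 were lower, and the median was −0.24. With the correction for transcript length 2 were lower and 2 higher, and the median turned to 0.11. *Ndufa10*, of the nucleoside kinase family, was at 3318, 3436 and 3186 normalized counts in vehicle and at 2680, 2607 and 2761 in melatonin, a log2 fold change of −0.30 (limma adjusted p = 0.0078). *Ndufa13*, also known as GRIM-19, was at 2484, 2320 and 2243 against 1975, 1797 and 2011, a log2 fold change of −0.29. The groups were apart in both. *Ndufa11* and *Ndufa8* were lower at −0.26 and −0.23, but with each sample left out in turn they kept their call in 1 of 6 fits each, and *Ndufa13* in 3 of 6. *Ndufa11* and *Ndufa8* also lost their call with the correction for transcript length, at 0.05 and 0.11. The same held with corrections for GC content and coding length and with a replicate block. The remaining 5 genes, *Ndufs5*, *Ndufc1*, *Ndufc2*, *Ndufa1* and *Ndufa3*, were not called. *Ndufc2* was at 1934, 1804 and 1645 in vehicle and 1193, 1514 and 1726 in melatonin, with a log2 fold change of −0.29 (95% interval −0.60 to 0.01), and it was called lower without melatonin replicate 3. *Ndufa3* was at 1592, 1463 and 1455 against 1540, 1336 and 1617, a log2 fold change of −0.01 (95% interval −0.22 to 0.21).

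In the peripheral arm, core and accessory subunits together, 9 of 16 members were lower, with a median of −0.34. With the correction for transcript length 6 were lower and 2 higher, with a median of −0.12. *Ndufa9* (chromosome 6, 126798684 to 126826117), which sits where both arms meet and belongs to a family of dehydrogenases, was at 4066, 4277 and 3945 in vehicle and at 2513, 2700 and 2854 in melatonin. Its lowest vehicle value exceeded its highest melatonin value by a wide margin, and the log2 fold change was −0.61 (limma standard error 0.08, adjusted p = 0.00044). *Ndufa2*, with a thioredoxin-like fold, was at 3518, 3280 and 3255 against 2363, 2387 and 2672, a log2 fold change of −0.44 whose call was lost with the correction for transcript length (−0.0051, limma adjusted p = 0.96). *Ndufa5*, *Ndufa6*, *Ndufa7* and *Ndufa12* were not called and their groups overlapped, with log2 fold changes of −0.16, −0.06, 0.00 and −0.15. *Ndufa7* was at 2373, 2286 and 2061 against 2342, 2076 and 2319 (95% interval of the log2 fold change −0.19 to 0.20). *Ndufab1*, the mitochondrial acyl carrier protein that binds in both arms and also serves fatty acid and iron-sulphur cluster synthesis, was at 1530, 1477 and 1367 against 1042, 1228 and 1144, a log2 fold change of −0.36 (limma adjusted p = 0.011) that was not called without vehicle replicate 1. *Ndufa4* carries the symbol but is a subunit of complex IV, cytochrome c oxidase. It was at 3777, 3548 and 3387 in vehicle and 2279, 2703 and 2966 in melatonin, a log2 fold change of −0.44 whose call was also lost with that correction (0.013, limma adjusted p = 0.91). Without *Ndufa4* and the assembly factors, 20 of 36 complex I subunits were lower, none higher, and the median was −0.29. With the correction for transcript length 11 of the 36 were lower and 6 higher, and the median was −0.07.

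The assembly factors did not move in one direction. Of the 8, 5 were lower, 1 was higher and 2 were not called, and the median log2 fold change was −0.42. With the correction for transcript length 4 were lower and 2 higher, with a median of −0.23. *Ndufaf6* (chromosome 4, 11048820 to 11076236), needed early in the building of the membrane arm, was at 263, 298 and 281 normalized counts in vehicle and at 139, 154 and 154 in melatonin. That is 281 ± 17.4 against 149 ± 8.54 (SD, n = 3), a fall of 0.91 on the log2 scale (limma standard error 0.13, adjusted p = 0.00069). *Ndufaf3* (chromosome 9, 108442729 to 108444642) and *Ndufaf4* (chromosome 4, 24898079 to 24905001) encode partners that bind each other and the ubiquinone module. *Ndufaf3* was at 809, 854 and 793 against 631, 510 and 549, and *Ndufaf4* at 787, 703 and 704 against 355, 598 and 585. Both were below vehicle in every melatonin sample, but in *Ndufaf4* melatonin replicate 1 lay far below the other 2. The log2 fold changes were −0.54 (limma adjusted p = 0.0031) and −0.55 (limma adjusted p = 0.038), and *Ndufaf4* lost its call whenever a vehicle sample was left out, with log2 fold changes between −0.68 and −0.30 over the 6 fits that left out a sample.

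*Ndufaf5*, *Ndufaf7* and *Ndufaf8* encode modifying enzymes and a partner. *Ndufaf5* (chromosome 2, 140012562 to 140047301) hydroxylates an arginine of *Ndufs7* and is held in place by *Ndufaf8* (chromosome 11, 119989736 to 119991531). *Ndufaf5* was at 277, 300 and 260 normalized counts in vehicle and at 179, 232 and 215 in melatonin, and *Ndufaf8* at 464, 459 and 448 against 320, 337 and 369. Both were lower in every melatonin sample, each with a log2 fold change of −0.42 (limma adjusted p = 0.034 and 0.01), although *Ndufaf5* kept its call in 2 of 6 fits when each sample was left out in turn. *Ndufaf8* kept its call in those 6 fits and lost it with corrections for transcript length (−0.06, limma adjusted p = 0.67), GC content (−0.27, limma adjusted p = 0.064) and coding length (−0.21, limma adjusted p = 0.097). *Ndufaf7* (chromosome 17, 79244538 to 79256938), a methyltransferase, went the other way, from 554, 545 and 483 in vehicle to 614, 700 and 772 in melatonin. Every melatonin value was above every vehicle value, and *Ndufaf7* rose by a log2 fold change of 0.40 (limma standard error 0.12, adjusted p = 0.02). It lost its call without vehicle replicate 3, melatonin replicate 2 or melatonin replicate 3, at between 0.32 and 0.48 over the 6 fits, under quantile normalization, and with a correction for coding length (0.27, limma adjusted p = 0.10).

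*Ndufaf2*, a relative of the subunit *Ndufa12* that holds its place until late in assembly, was at 189, 201 and 166 in vehicle and at 199, 244 and 259 in melatonin. Only melatonin replicate 1 fell within the vehicle range, and the log2 fold change of 0.33 (95% interval −0.02 to 0.68, limma adjusted p = 0.10) was called when that sample was left out. *Ndufaf2* was also called higher with corrections for transcript length (0.72, limma adjusted p = 0.0034) and coding length (0.40, limma adjusted p = 0.0499). *Ndufaf1*, of the complex that assembles the proximal membrane arm, was at 680, 718 and 606 against 713, 728 and 704, a log2 fold change of 0.10 (95% interval −0.12 to 0.32). The groups of *Ndufaf1* overlapped.

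**Figure D3:**
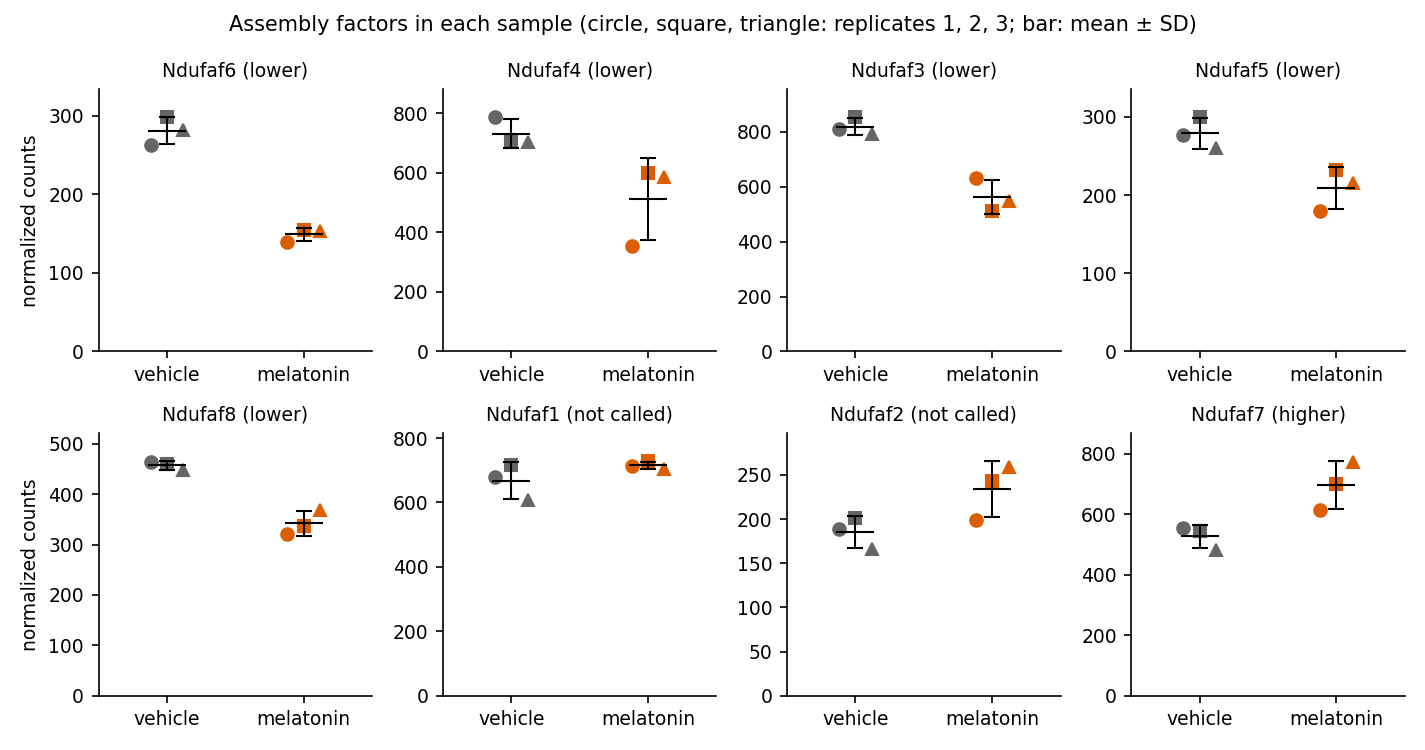
Normalized counts of the 8 *Ndufaf* assembly factors in each sample of the vehicle and melatonin groups (circle, square and triangle for replicates 1, 2 and 3), with the mean and SD as a bar, each axis starting at 0. In 5 factors all melatonin points lie below vehicle, in *Ndufaf7* all lie above, and in *Ndufaf1* and *Ndufaf2* they overlap.

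Other genes of the pathway were taken from fixed lists, to be read beside the 24.7% lower and 24.5% higher of all genes. Of 12 complex I assembly factors with other symbols 11 were tested, and 2 were lower, 1 higher and 8 not called, with a median log2 fold change of −0.19. *Ndufaf1* works with *Ecsit*, *Acad9* and *Tmem126b*, which had log2 fold changes of −0.40 (lower), 0.04 (not called) and 0.49 (higher). *Timmdc1*, another factor of the membrane arm, was lower at −0.98, from low values (between 75.5 and 98.9 in vehicle and between 32.7 and 68.4 in melatonin), and lost its call without vehicle replicate 1, vehicle replicate 2 or melatonin replicate 2. The 7 core subunits encoded by mitochondrial DNA had a median of −1.19, with 6 lower. *mt-Nd1* was at 15537, 12341 and 10904 normalized counts in vehicle and at 6475, 6280 and 8237 in melatonin, a log2 fold change of −0.88. *mt-Nd4l* was not called at −2.33 (standard error 0.97), with values between 20.9 and 70.0 in vehicle and 0.37, 12.2 and 25.2 in melatonin, and was called lower without melatonin replicate 1. Of 13 genes that make and hand on iron-sulphur clusters, 5 were lower and 3 higher, with a median of −0.22, and the share higher was close to that of all genes. *Fdx2*, a ferredoxin, and *Lyrm4*, a partner of the cysteine desulphurase, were lower at −1.53 and −1.24, while the carriers *Isca1*, *Isca2* and the scaffold *Iscu* were higher at 0.40, 0.35 and 0.37. *Isca1* lost its call without vehicle replicate 1.

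Pseudogene copies listed with values of their own were found for 9 of the 45 members, by a match on the same strand of at least 90% identity over at least 50% of the coding sequence. *Tepsin*, a protein-coding gene that overlaps *Ndufaf8* on the opposite strand, also reached these thresholds, at 99.1% identity over 52.0%, and was treated as an overlapping gene and not as a copy. For 3 members, copies held a large share of the reads. *Ndufa12-ps* held 63.7% of the sum of *Ndufa12* and its copy, at 2311, 2226 and 2290 normalized counts in vehicle and 1821, 2054 and 2179 in melatonin. *Ndufb4c* (chromosome 15), identical to *Ndufb4* over all 390 coding bases, held 64.4%, and *Gm4459* with *Ndufab1-ps* held 51.3% of the sum for *Ndufab1*. As separate genes, *Ndufb4* and *Ndufb4c* had log2 fold changes of −0.42 and −0.40, and only the copy was called, with limma adjusted p-values of 0.078 and 0.018. With copies added to their member, a setting chosen after the data had been seen, *Ndufb4* was called lower at −0.41 (limma standard error 0.13, adjusted p = 0.026). *Ndufab1* stayed lower at −0.36 and *Ndufa12* stayed uncalled at −0.17 (limma adjusted p = 0.12). Copies held 12.6% of the sum for *Ndufs3* and 4.53% for *Ndufs5*, and between 0.295% and 2.94% for *Ndufa11*, *Ndufb2*, *Ndufb11* and *Ndufs6*. Among the 36 members with no listed pseudogene copy, *Ndufaf8* included, 21 were lower, 1 was higher and the median was −0.30, and with the correction for transcript length 12 were lower, 7 higher and the median was −0.06.

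**Figure D4:**
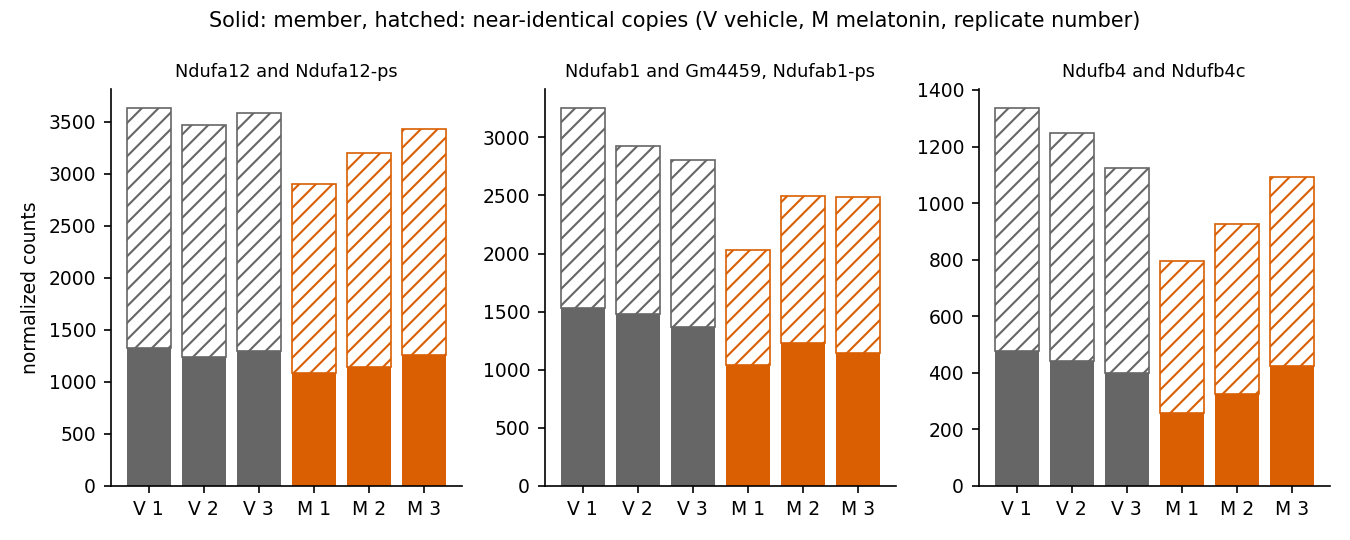
Normalized counts of *Ndufa12*, *Ndufab1* and *Ndufb4* (solid) stacked with those of their near-identical copies (hatched) in each sample, V for vehicle and M for melatonin with the replicate number. Copies make up 63.7%, 51.3% and 64.4% of the sums, and M1 has the lowest sum in each panel.

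Reads can also be shared by genes that overlap. Of the 45 members, 29 share exon bases with another annotated gene and 20 of them with a listed one, nearly always on the opposite strand, and the counting is not stated to use strand. *Ndufaf8* shares 320 of its 852 exon bases with *Tepsin*, which was higher at 0.65. *Ndufs1* shares 297 of 11979 exon bases with *Eef1b2*, which was lower at −1.19, and 1432 with the lncRNA gene *Ino80dos*, which was higher at 0.93. *Ndufb2* shares 870 of 11465 with *Braf*, which was not called at −0.01. *Ndufb11*, with 1023 of 1509 bases shared with *Rbm10* (not called, −0.07), shared the largest part of its exon bases among those named here.

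*Ndufa1* and *Ndufb11* lie on the X chromosome, and the libraries differ in sex-linked transcripts as given above. *Ndufa1* was at 3367, 3319 and 2903 normalized counts in vehicle and at 3604, 2975 and 3303 in melatonin, and *Ndufb11* at 2724, 2339 and 2275 against 2637, 2609 and 2854. Both sets of groups overlapped, and the log2 fold changes were 0.04 (95% interval −0.18 to 0.26) and 0.15 (95% interval −0.06 to 0.35). With the correction for transcript length both genes were called higher, at 0.52 and 0.29 (limma adjusted p = 0.017 and 0.024). They were also called higher with a correction for coding length, at 0.26 and 0.23. Without melatonin replicates 2 and 3, which leaves 1 melatonin sample that is assumed to vary like the vehicle samples, 31 members were lower and none was higher, and the median was −0.36. In that fit 26.6% of all genes were lower and 24.2% higher. *Ndufaf7* was not called in that fit, at 0.22.

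Members have short transcripts. Their median transcript length was 1252 bases beside 2977 for all genes tested, and short transcripts had lower fold changes across all genes. The 1861 tested genes with a transcript under 1000 bases had their median log2 fold change at −0.42, and the 12530 longer ones at 0.04. The 20 members under 1000 bases had a median of −0.26, and the 25 longer members −0.33. When a curve of log2 value against transcript length was removed from each sample, 15 members were lower and 8 higher, and the median of the 45 was −0.06. That is 33.3% lower and 17.8% higher, beside 24.0% and 23.7% of all genes in that fit, so that the shares lay nearer those of all genes than in the values as deposited. The *Ndufs* and *Ndufv* genes then had 5 lower and a median of −0.18, the assembly factors 4 lower and 2 higher with −0.23, and the accessory genes 6 lower and 6 higher with a median of 0.03, so that the sign of their median turned. The 8 higher members were *Ndufa1*, *Ndufa3*, *Ndufa6*, *Ndufa7*, *Ndufb10*, *Ndufb11*, *Ndufaf2* and *Ndufaf7*. No member that was lower became higher, and 15 were lower in both fits. Those no longer called were *Ndufs3*, *Ndufs7*, *Ndufa2*, *Ndufa4*, *Ndufa8*, *Ndufa11*, *Ndufb5*, *Ndufb6*, *Ndufb7*, *Ndufb8* and *Ndufaf8*, with values between −0.18 and 0.15. Of the members lower in both fits, *Ndufs1*, *Ndufs4*, *Ndufs6*, *Ndufs8*, *Ndufa9*, *Ndufa10*, *Ndufb2*, *Ndufb3*, *Ndufaf3* and *Ndufaf6* were also lower after a correction for GC content and in all 6 fits that left out a sample. The curve takes 1 annotated transcript per gene, which is 4389 bases for *Ndufb2* with a coding part of 318. With coding length in its place, a setting added after the data had been seen, 22 members were lower and 3 higher, and the median was −0.27. Of all 12080 genes in that fit 28.0% were lower and 23.4% higher, beside 48.9% and 6.67% of members. The 3 were *Ndufa1*, *Ndufb11* and *Ndufaf2*, and *Ndufa8*, *Ndufa11*, *Ndufb7*, *Ndufaf4*, *Ndufaf7* and *Ndufaf8* lost their call, while *Ndufv1* was called lower at −0.29.

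**Figure D5:**
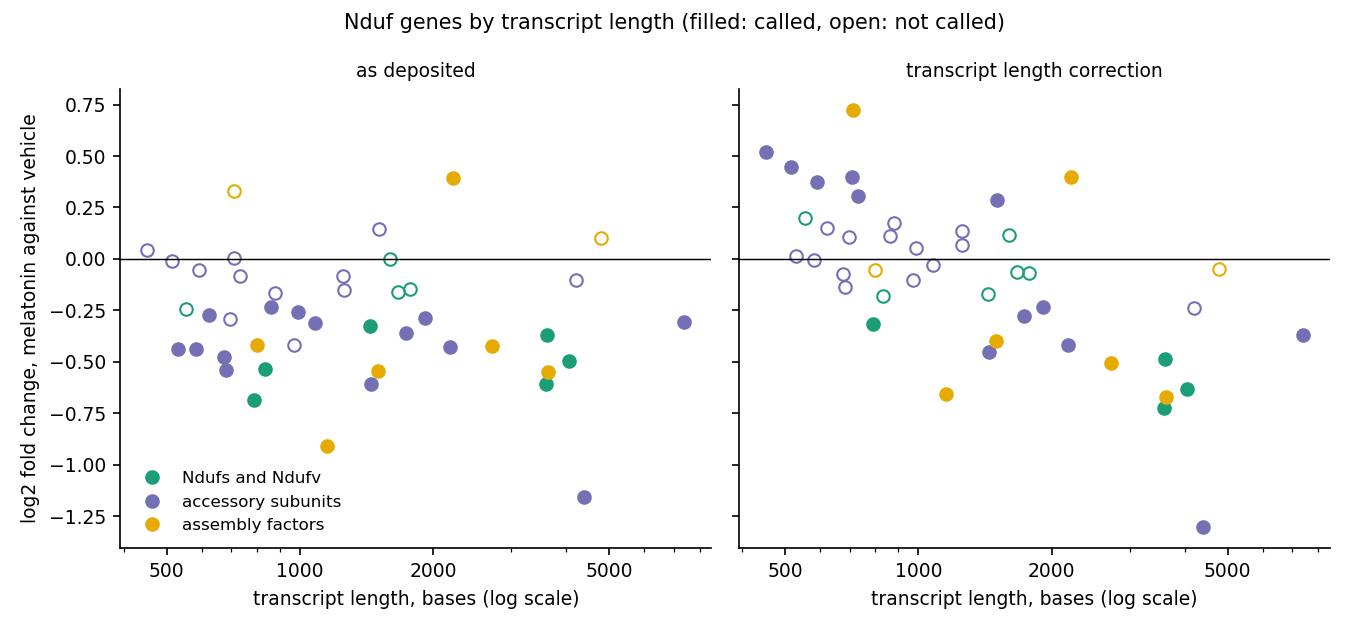
Log2 fold change of 44 *Nduf* genes against transcript length in bases (log axis), in the values as deposited (left) and after removal of a curve of log2 value against transcript length from each sample (right), filled where called by limma and coloured by class. Of the shortest members, several move from near 0 to above it on the right, and the long members at the lower right stay below.

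The promoters of members were searched for short motifs in 300 bases of GRCm39, from 250 before to 50 after the start of the annotated transcript, on both strands. The ERR half-site AAGGTCA was in 4 of 45 members (*Ndufb2*, *Ndufb4*, *Ndufs1* and *Ndufs5*), 8.89%, and in 3.74% of the 12064 protein-coding genes tested. NRF1 (GCATGCGC) was in 4, 8.89% beside 5.14%, and YY1 (AAGATGG) in 6, 13.3% beside 6.36%. ETS (CCGGAAG) was in 7, 15.6% beside 16.2%, and the E-box CACGTG in 2, 4.44% beside 10.1%. The CRE TGACGTCA was in 1, 2.22% beside 3.31%, and the antioxidant element TGACNNNGC in 9, 20.0% beside 13.7%. TGACGTCA and TGACNNNGC begin alike but differ at the eighth letter, so that a match to one is not a match to the other. A match is a description of letters and not a binding site. *Ndufb2* is printed because its fall was the largest. The stretch holds the 250 bases upstream of its start on the plus strand, chr6:39569240-39569489, with the ERR half-site in capitals. Its CRE match does not lie wholly within these bases.
Ndufb2: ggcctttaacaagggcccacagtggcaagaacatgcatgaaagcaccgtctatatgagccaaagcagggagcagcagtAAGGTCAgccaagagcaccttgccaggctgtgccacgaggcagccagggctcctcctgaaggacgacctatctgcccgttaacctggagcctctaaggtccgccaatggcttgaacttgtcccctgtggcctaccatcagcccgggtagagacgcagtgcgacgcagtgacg

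Some members share a promoter region with a gene on the opposite strand. For 9 of the 45 members, 20.0%, the start of a protein-coding gene that runs the other way lay within 1000 bases, beside 7.94% of the 12064 protein-coding genes tested. Such pairs did not all move together. *Ndufaf7* starts 25 bases from *Cebpz*, a ribosome assembly factor, and had a log2 fold change of 0.40 where *Cebpz* was lower at −0.39 (limma adjusted p = 0.03). *Ndufa7* starts 1 base from *Rps28*, a ribosomal protein gene, and had 0.00 where *Rps28* was lower at −1.51 (limma adjusted p = 0.00045). *Ndufaf2* starts 74 bases from the DNA repair gene *Ercc8*, which was lower at −0.54 beside 0.33. *Ndufaf5* and *Esf1*, 80 bases apart, were at −0.42 and −0.33, the latter not called.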

How the data were processed

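RNA from 3 melatonin-treated and 3 vehicle-treated aILC2 samples was sequenced. The authors trimmed reads in Partek Flow 12.9.0, aligned them with STAR 2.7.8a to mm39, quantified Gencode M33 genes with an algorithm that divides reads among genes, and normalized by median ratios. The deposited signal is therefore a normalized count per gene, of which 64.2% were whole multiples of the value of 1 read (tolerance 0.01), so whole reads were not recovered and a count model was not the main test. Differences were tested with limma 3.58.1 (R 4.3.3, eBayes with trend) on log2 of the value plus 1, which understates changes of low genes. Genes needed a value of 10 or more in any sample, and adjustment (Benjamini-Hochberg, threshold 0.05) ran over all 14419. The mean of members over the 6 samples ran from 209.6 to 4589 and their standard errors from 0.07 to 0.19. On simulated data of this size, with a coefficient of variation of 0.07, 15 of 50 genes with a simulated log2 fold change of −0.4 were recovered. At −1, 50 of 50 were recovered, and 1 of 14219 genes without a change was called. Far more genes were called in the real data, which makes the adjusted threshold easier to reach, so these rates do not carry over to the real fit.

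Members, lists, classes and tests were chosen with earlier results of these data known. A few withheld genes, 1 of them a member, enter the totals and are not reported singly here. The other members are named, the core subunits and the extremes of each class with values in every sample. Overlapping and divergent neighbours and examples from other lists were chosen after their values were seen. Names, positions and lengths came from Gencode M39 on GRCm39, in which 16334 of 16381 listed genes had a name. Copies were found with blastn 2.17.0, and tables and figures were made with pandas 2.3.3 and matplotlib 3.10.9. The lowess curves for length and GC content had a span of 0.3. Other settings tried were pseudocounts, filters, scalings, sample weights, voom, a replicate block and leaving out each sample. No gene list was tested as a set.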

Additional observations from a re-analysis of the deposited data

How the results depend on the processing

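Of the 26 members called lower, 18 kept their call in all 6 fits that left out a sample. Over these fits the number lower was between 18 and 29 and the number higher between 0 and 2. Their medians lay between −0.33 and −0.27 for all members, −0.38 and −0.32 for *Ndufs* and *Ndufv*, −0.31 and −0.23 for accessory genes and −0.46 and −0.31 for assembly factors. Over all genes, between 2747 and 3454 were higher and between 2708 and 3619 lower. Of members near 0, the range over these fits was −0.056 to 0.050 for *Ndufv3*, −0.20 to 0.051 for *Ndufc1*, −0.0665 to 0.0712 for *Ndufa3*, −0.055 to 0.060 for *Ndufa7* and −0.026 to 0.11 for *Ndufa1*. Same-numbered samples did not deviate together (correlations −0.05, 0.01 and −0.05 over 14419 genes). Deviations from the mean of 3 samples cannot decide whether the numbers pair the samples. A replicate block gave 23 members lower and 1 higher with the median at −0.30, and 3160 higher and 3278 lower genes overall.

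Correction for transcript length moved most: 15 lower, 8 higher and medians of −0.062 for all members, −0.18 for *Ndufs* and *Ndufv*, 0.033 for accessory genes and −0.23 for assembly factors. Signs turned there for *Ndufs5* (0.20), *Ndufv3* (0.11), *Ndufa4* (0.013), *Ndufc2* (0.10), *Ndufb7* (0.15), *Ndufa11* (0.052), *Ndufa8* (0.11), *Ndufa5* (0.18), *Ndufa12* (0.070), *Ndufc1* (0.14), *Ndufb10* (0.30), *Ndufa6* (0.38), *Ndufa3* (0.45) and *Ndufaf1* (−0.050). Correction for GC content gave 22 lower, 2 higher (23.2% and 26.2% of all genes) and medians of −0.22 for all members and −0.21 for *Ndufs* and *Ndufv*, with *Ndufv3* at 0.13, *Ndufb10* at 0.064, *Ndufa6* at 0.081 and *Ndufa3* at 0.066. Coding length, added after the data had been seen, gave 3 higher and −0.44 for *Ndufs* and *Ndufv*, with *Ndufc1* at 0.12, *Ndufa6* at 0.053 and *Ndufa3* at 0.18. Scaling to the same total put *Ndufv3* at 0.037 and *Ndufa3* at 0.029. Upper quartile scaling put *Ndufa7* at −0.046 and *Ndufa1* at −0.0074, with −0.40 for *Ndufs* and *Ndufv*. Sample weights gave 2 higher, with *Ndufv3* at 0.0045, *Ndufa7* at −0.050 and *Ndufa1* at −0.037. None was higher under quantile normalization, a threshold of 0.01 (18 lower, and 2188 higher and 2267 lower genes overall) or without both *Xist* libraries, where *Ndufa3* was at 0.036. Pseudocounts, filters and voom changed no member's call. The causes were not tested. With 3 samples per group and standard errors between 0.07 and 0.19, small differences of single members can be missed.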
